A study of Homo sapiens with 16 samples.

Results

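The subunits of the proteasome were followed in HepG2 cells, a line derived from a human liver tumour, after exposure to fatty acids. Members were all array probes whose gene symbol begins with PSM and continues with one letter from A to G and a number, which gave 48 of 30968 probes and 39 gene symbols. There were 16 samples in 4 groups of 4 biological replicates. Cells received 100 µM of oleic, elaidic or stearic acid over 7 days, or no fatty acid as the control, and every group was kept without serum. Oleic acid and elaidic acid are the cis and trans forms of the same monounsaturated acid, and stearic acid is the saturated acid of the same chain length. HepG2 is 1 cell line, and the labels do not say how the biological replicates were cultured, so p-values measure the spread between these samples, part of which may be technical. RNA was amplified, labelled with Cy5 and hybridised to 1-colour arrays, with 2 technical replicate arrays named for each sample and 1 deposited intensity per probe and sample. The study's title places the comparison in a search for expression markers of elaidic acid, the main trans fatty acid of the diet.

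The proteasome is the large protease that degrades proteins tagged with ubiquitin. Its barrel-shaped core particle is built from rings of alpha subunits (PSMA genes), which form the gate, and rings of beta subunits (PSMB genes), some of which carry the active sites. A regulatory particle of ATPases (PSMC genes) and non-ATPase subunits (PSMD genes) binds the ends of the core, recognises ubiquitin, removes it and unfolds the substrate. Activators (PSME genes) can bind the same ends in its place, PSMF1 is an inhibitor of the core, and PSMG genes encode assembly chaperones. Transcription of many subunit genes is known to be raised together by the factors NFE2L1 and NFE2L2, which bind antioxidant response elements, and NF-Y binds CCAAT boxes in several of their promoters.

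Promoter windows from RefSeq (GRCh38.p14), each the 250 bases before the outermost listed start of the gene, matched 33 of the 39 symbols. PSMB1, PSMD4, PSMA7, PSMG3, PSMB6 and PSMB7 were not matched. Windows were searched on both strands for TGACNNNGC, the core of the antioxidant response element, and for CCAAT, and in the printed windows no match to one motif overlapped a match to the other. TGACNNNGC was present in 8 of 33 member windows (24.2%) and in 3033 of 27305 windows of all promoters in the table (11.1%). CCAAT was present in 14 member windows (42.4%) and in 33.0% of all windows, and both motifs were present in 2 member windows, those of PSMB3 and PSMD3 (6.06%, against 3.69% of all windows). By role, TGACNNNGC was found in 1 of 10 core windows, 4 of 18 regulatory windows and 3 of 4 activator windows, and CCAAT in 4, 9 and 1 of these. Such a match is a description of the letters and not a binding site. The windows of 4 genes are printed because the results turn on them: PSMB3, the single member called between elaidic and stearic acid; PSMB5, a catalytic subunit with the largest difference between stearic acid and control; PSMA4, the single called member that was lower with stearic acid; and PSMD14, whose direction turned with the array series. Capitals mark the motif matches, and each window reads 5′ to 3′ towards the gene.
PSMB3 promoter, chr17:38752491-38752740, + strand: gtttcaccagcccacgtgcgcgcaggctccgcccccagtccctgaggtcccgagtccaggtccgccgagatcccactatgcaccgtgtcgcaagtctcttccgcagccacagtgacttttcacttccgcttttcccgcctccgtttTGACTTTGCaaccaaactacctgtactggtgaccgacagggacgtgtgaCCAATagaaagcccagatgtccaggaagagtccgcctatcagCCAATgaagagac
PSMB5 promoter, chr14:23035221-23035470, - strand: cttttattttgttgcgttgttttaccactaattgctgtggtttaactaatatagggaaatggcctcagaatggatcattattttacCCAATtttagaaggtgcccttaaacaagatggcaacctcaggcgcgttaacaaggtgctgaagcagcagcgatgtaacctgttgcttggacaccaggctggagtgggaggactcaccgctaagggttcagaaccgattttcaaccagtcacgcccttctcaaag
PSMA4 promoter, chr15:78540155-78540404, + strand: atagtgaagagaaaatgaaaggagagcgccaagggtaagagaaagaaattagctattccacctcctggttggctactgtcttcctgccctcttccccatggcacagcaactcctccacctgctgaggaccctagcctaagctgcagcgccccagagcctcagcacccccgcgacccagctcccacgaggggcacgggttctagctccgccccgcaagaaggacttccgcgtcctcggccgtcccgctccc
PSMD14 promoter, chr2:161308175-161308424, + strand: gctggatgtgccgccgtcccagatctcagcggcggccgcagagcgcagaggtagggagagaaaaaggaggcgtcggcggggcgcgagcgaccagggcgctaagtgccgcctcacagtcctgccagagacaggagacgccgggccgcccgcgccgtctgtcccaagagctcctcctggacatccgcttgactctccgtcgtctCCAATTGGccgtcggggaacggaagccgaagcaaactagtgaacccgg
The PSMB3 window holds TGACTTTGC at 104 to 96 bases before the start and CCAAT at 55 to 51 and at 13 to 9 bases. In PSMB5 CCAAT lies at 164 to 160 bases before the start, and in PSMD14 a pair of overlapping matches on opposite strands lies between 48 and 41 bases. No match to either motif was found in the PSMA4 window, which says only that these letters are not in those 250 bases.

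Of the 48 member probes, 43 probes for 35 symbols had a positive value in every sample and were tested; 32 of them lay among the brighter 50% of the 22939 probes tested and 15 among the brightest 10%. The median intensity of all probes ran from 19.95 to 76.14 per sample, so each sample was placed on the same distribution by quantile normalisation of log2 intensities, and all levels below are on that log2 scale unless stated. Hepatocyte genes were bright: APOA1 read between 7097 and 65610 and TTR between 2623 and 42280 on their brightest probes, in intensity units. The summed intensity of the 13 hepatocyte marker probes was 28070 to 126100 in control, 27220 to 82550 in oleic acid, 95080 to 239800 in elaidic acid and 172000 to 239000 in stearic acid. Sums here were not normalised for the brightness of the arrays. On the normalised log2 scale the median difference of these probes from control was 0.86 for elaidic acid and 0.90 for stearic acid. In each, 12 probes were higher and 1 was lower. With the slide series block described below, these medians were 0.41 and 0.33. Markers of blood, endothelial, fibroblast, stellate, bile duct and muscle cells summed to between 1346 and 2577 over 13 probes in every group, and most of that was CD14 at 810.5 to 1859. CD3E, PECAM1, DCN, PTPRC, KRT7 and LRAT stayed at or below 34.03. Other markers were brighter. COL1A1 read 123.1 to 390, the brighter MYH11 probe 170.8 to 317.8 and COL1A2 34.01 to 105.5, and VWF reached 55.43. The part of the hepatocyte signal in the results below was not tested, and in RNA pooled from many cells fewer cells of a type and less RNA per cell cannot be told apart.

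Arrays were numbered in 2 separate ranges, here called slide series A and B. In series A were the 4 controls, the 4 samples given oleic acid and replicates 2 and 4 of elaidic acid (10 samples). In series B were the 4 samples given stearic acid and replicates 1 and 3 of elaidic acid (6 samples). No stearic acid sample was therefore in the same series as a control or an oleic acid sample, and for those comparisons acid and slide series cannot be told apart except through the elaidic acid samples. For each comparison that spans both series, the members as a whole and many single probes are also given with slide series as a block. The block turns elaidic acid against control or oleic acid into 2 samples against 4 within series A. It turns elaidic acid against stearic acid into 2 against 4 within series B. Where a single probe is given without the block, its value was not adjusted for slide series.

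The median proteasome probe separated the samples by series without overlap. It read 8.13, 8.86, 8.65 and 8.83 in control replicates 1 to 4, 8.61, 8.63, 8.68 and 7.91 in oleic acid, 9.68, 8.67, 9.31 and 8.88 in elaidic acid, and 10.39, 9.66, 9.99 and 10.52 in stearic acid. The 10 samples of series A spanned 7.91 to 8.88 and the 6 samples of series B 9.31 to 10.52, and before normalisation the ranges were 7.20 to 9.35 and 9.77 to 11.37. Within elaidic acid, the replicates of series B were the high ones and those of series A lay beside or just above control. The mean of this median was 8.61 ± 0.34 in control (SD, n = 4, as for the rest), 8.46 ± 0.37 in oleic, 9.13 ± 0.45 in elaidic and 10.14 ± 0.39 in stearic acid. All 6 samples of series B lay above all 10 of series A in 17 of 43 member probes (39.5%), against 12.1% of all probes tested, and below them in 2 (PSMA4 and PSMA1), against 10.1%. The term for slide series, which rests on the elaidic acid samples, was positive in 36 of 43 member probes with a median of 0.57, while the median over all probes tested was -0.13. Both elaidic acid samples of series B lay above both of series A in 29 members, against 30.4% of all probes, and below them in 6, against 38.5%. By role its median was 0.32 for core beta, 0.78 for core alpha, 0.32 for ATPase, 0.70 for non-ATPase and 1.50 for activator probes. Only PSMD14 (3.66 higher in series B, adjusted p = 0.0266) and PSMA4 (log2 difference -1.62, adjusted p = 0.0284) were called for the series term by limma with Benjamini-Hochberg adjustment, against 4.05% of all probes. Without any 1 of the elaidic acid samples none was called, and without control replicate 1 or control replicate 4 there were 4. The calls among all probes in these fits are not given here.

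**Figure D1:**
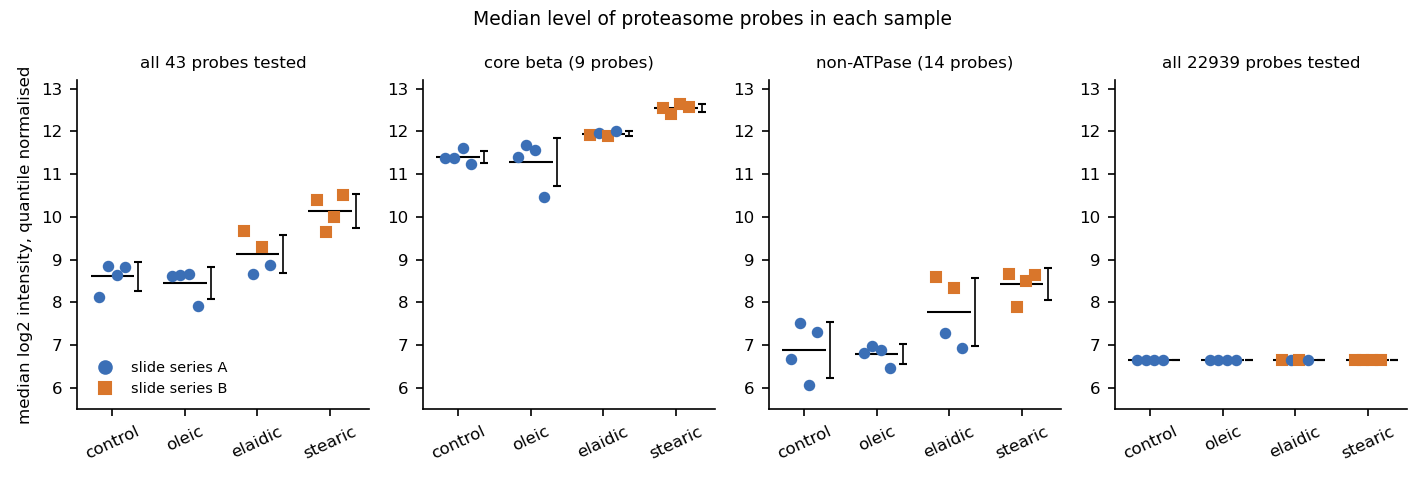
Median log2 intensity, quantile normalised, in each sample for all 43 proteasome probes tested, the 9 core beta probes, the 14 non-ATPase probes and all 22939 probes tested; points are samples (circles slide series A, squares series B), lines are group means and bars are SD (n = 4). The proteasome medians of series B lie between 9.31 and 10.52, above the 7.91 to 8.88 of series A, while the median of all probes is level by construction of the normalisation.

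In elaidic acid against control, the comparison named in the study's title, most proteasome probes lay somewhat higher, and no single probe passed the test. The log2 difference was positive in 36 of 43 probes, with a median of 0.43 (1.35-fold), against -0.10 for all probes tested. No member was called by limma at a Benjamini-Hochberg adjusted p under 0.05, where 0.323% of all probes were. An unadjusted p under 0.05 was found for 8 of 43 members, where 3283 of 22939 probes had one. All 9 core beta probes, all 4 ATPase probes and 13 of 14 non-ATPase probes were higher, with medians of 0.43, 0.31 and 0.47. Among the other roles 5 of 8 core alpha probes, 4 of 6 activator probes and 1 of the 2 inhibitor and chaperone probes were higher, with medians of 0.48, 0.74 and 0.38. Within series A, where the slide series is shared, none was called, against 0.0392% of all probes, and 29 of 43 were higher with a median of 0.19 against 0.02 for all probes, and the core beta probes were the group in which every member was higher, with a median of 0.23. There, both elaidic acid samples lay above all 4 controls in 2 member probes (PSMB2 and PSMD8), a share of 4.65% against 7.17% of all probes, and below them in none, against 5.72%. With arrays weighted by their quality, 15 members were called, among 4656 of all 22939 probes.

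Oleic acid against control gave differences about 0 in the proteasome probes. There were 18 of 43 higher, the median was -0.082 against 0.013 for all probes, and the groups overlapped in every member, where 1.23% of all probes did not. None was called by limma, where 0 of 22939 probes were; 1 member, PSMG3, had an unadjusted p under 0.05, among 602 of all probes. The core beta probes had a median of 0.13 with 7 of 9 higher and the core alpha probes a median of -0.22 with 2 of 8 higher. Leaving out oleic acid replicate 4, a dim array with the lowest proteasome median of all samples, turned the median to 0.051. All samples of both groups lie in series A.

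Elaidic acid against oleic acid, the trans form against the cis form at the same dose and time, shares its elaidic acid samples with the comparison with control. Higher values with elaidic acid were seen in 37 of 43 probes, with a median of 0.40 against -0.13 for all probes. An unadjusted limma p under 0.05 was found for 10 of 43 members, where 4342 of 22939 probes had one. No member was called by limma after Benjamini-Hochberg adjustment, against 0.318% of all probes, and 21 were called with array weights, among 8953 of all probes. Within series A none was called, against 0.0218% of all probes, 33 of 43 were higher and the median was 0.22, against 0.01 for all probes. The elaidic acid samples of that series lay above all oleic acid samples in 6 members and below them in 2, against 6.29% of all probes in each direction.

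Stearic acid against control showed most proteasome probes higher. Of the 43 probes, 39 were higher, and the median of 1.24 (2.37-fold) stood against -0.18 for all probes. limma called 30 members higher (69.8%, against 15.0% of all probes) and 1, PSMA4, lower (against 14.8%), after Benjamini-Hochberg adjustment. The groups did not overlap in 30 members above, against 18.7% of all probes, and in 2 below, against 18.9%. Bright probes were called more often as a whole: of the brighter 50% of all probes 41.0% were called in either direction, and 26 of the 32 members in it; of the brightest 10% it was 49.3%, and 13 of 15 members. By role, 9 of 9 core beta, 6 of 8 core alpha, 2 of 4 ATPase, 9 of 14 non-ATPase and 3 of 6 activator probes were called higher. With slide series as a block no member and no other probe was called; the median was 0.63, against 0.01 for all probes, and 35 of 43 were higher. The core beta probes had a blocked median of 1.07. There 6 of the 9 had an unadjusted limma p under 0.05, where 1710 of 22939 probes had one. Without stearic acid replicate 1, 20 members were called in place of 31, and 25 without the 2 dimmest arrays. The calls among all probes at these settings are not given here.

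**Figure D2:**
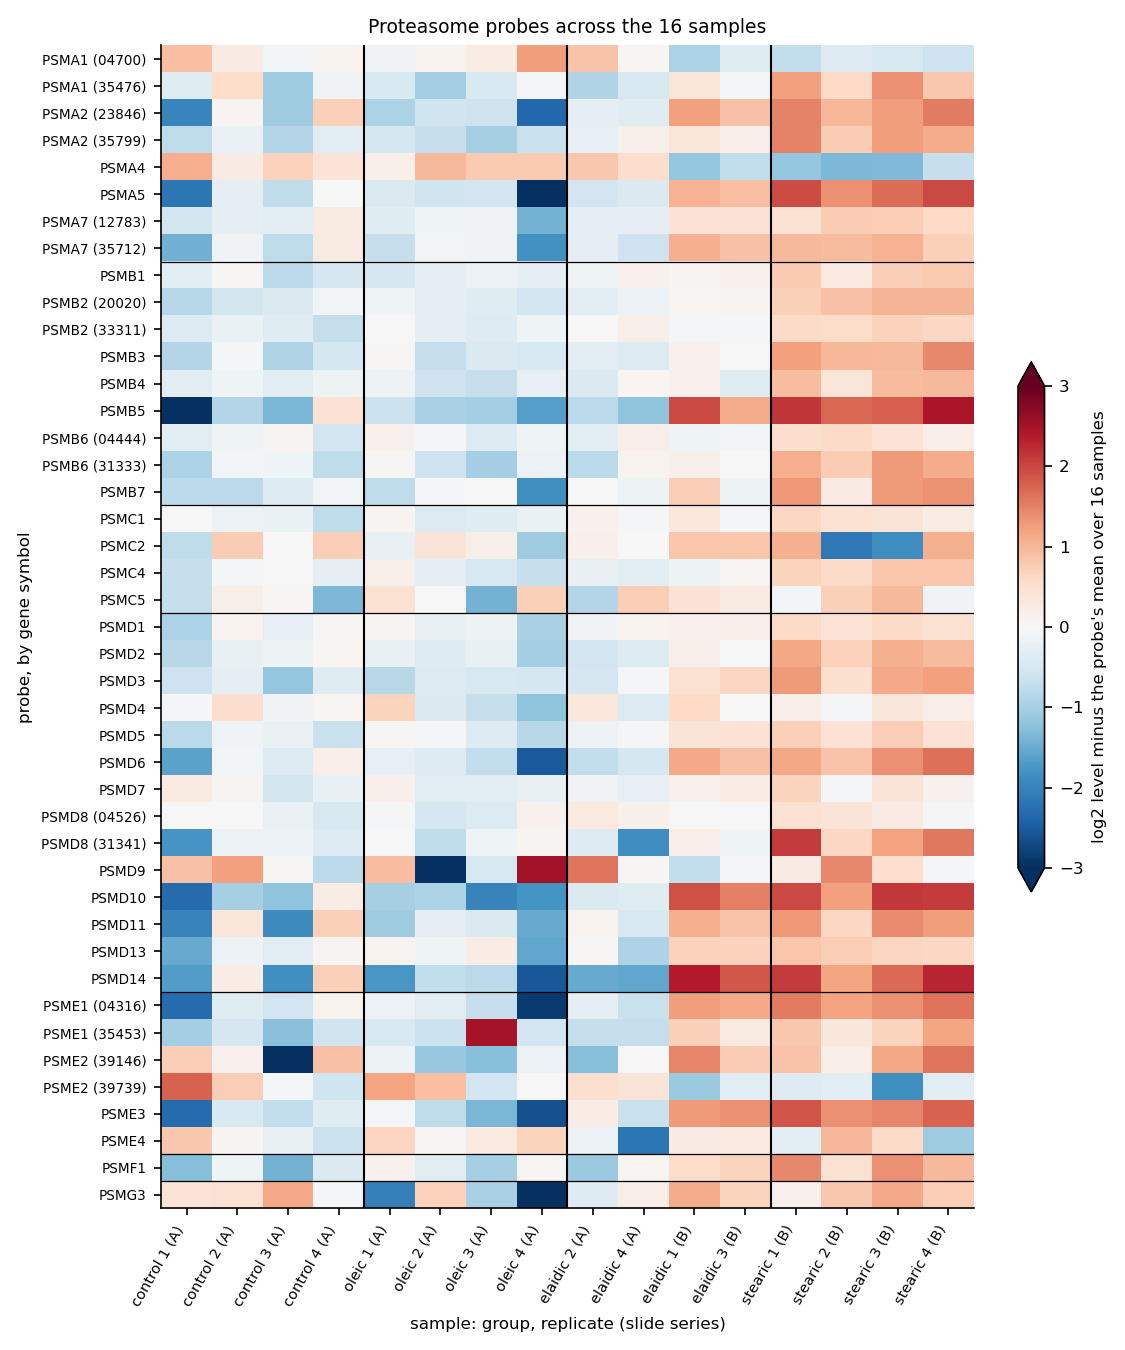
Log2 level of each tested proteasome probe in each of the 16 samples, shown as the difference from the probe's mean over all samples (colour scale from -3 to 3), with samples ordered by group and, within elaidic acid, by slide series. The stearic acid columns and elaidic acid replicates 1 and 3, all of series B, are mostly red, and PSMA4 with one probe each of PSMA1 and PSME2 runs the other way.

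Elaidic acid against stearic acid, the trans unsaturated against the saturated acid, is the comparison in which a replicated difference can be read within series B. Over all samples, 39 of 43 probes were lower with elaidic acid, the median was -0.75 against 0.07 for all probes, and PSMB3 was called lower, where 0.310% of all probes were. Within series B the median was -0.27 against 0.02, 34 of 43 were lower and none was called, against 0.00436% of all probes. Both elaidic acid samples of series B lay below all 4 stearic acid samples in 17 members (39.5%), against 12.3% of all probes, and above them in 0, against 11.1%. Among the 9 core beta probes all were lower within series B, with a median of -0.75, and 7 did not overlap; among the 6 activator probes 3 were lower, with a median of -0.12, and every activator probe overlapped. The number of calls moved between 0 and 10 with the setting, and the calls among all probes at each setting are not given here. There were 0 with the slide series block, in the 2 groups alone, or without any 1 of 11 samples. There were 3 without control replicate 1 or oleic acid replicate 4, 2 without oleic acid replicate 1, and 10 with array weights.

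Oleic acid against stearic acid, the cis unsaturated against the saturated acid, was tested in the same fit and shares the stearic acid samples with the comparison above. Proteasome probes were lower with oleic acid in 38 of 43, with a median of -1.35 against 0.21 for all probes. limma with Benjamini-Hochberg adjustment called 30 lower, against 18.4% of all probes, and PSMA4 higher, against 21.0%. With the slide series block none was called, where 0 of 22939 probes were. The blocked difference was negative in 36 of 43, with a median of -0.64 against -0.0028 for all probes. The core beta probes had a blocked median of -0.95.

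The catalytic core subunits were examined first by role. PSMB5 carries the chymotrypsin-like activity, PSMB6 the caspase-like and PSMB7 the trypsin-like activity. PSMB5 read 5.14, 7.32, 6.83 and 8.64 in control replicates 1 to 4, 7.56, 7.22, 7.17 and 6.55 in oleic acid, 10.18, 7.38, 9.31 and 6.98 in elaidic acid, and 10.33, 9.92, 9.99 and 10.64 in stearic acid. All samples of series B were above all of series A, and the elaidic acid replicates of series A lay inside the control range. Its difference between stearic acid and control was 3.24 (SE 0.69, limma adjusted p = 0.00533) and was 0.68 (SE 0.93, adjusted p = 1) with the slide series block. In elaidic acid against control it was 1.48 (SE 0.69, adjusted p = 0.348), and 0.20 (SE 0.65) within series A.

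PSMB6 was less spread. Its brighter probe read 13.51, 13.72, 13.92 and 13.27 in control, 13.97, 13.79, 13.46 and 13.72 in oleic acid, 13.73, 13.54, 13.78 and 14.05 in elaidic acid, and 14.37, 14.42, 14.26 and 14.06 in stearic acid. Only the stearic acid samples stood clear of control. Elaidic acid differed from control by 0.17 (SE 0.21, limma adjusted p = 0.682) and from oleic acid by 0.036 (SE 0.21, adjusted p = 0.924), a difference whose sign turned with cyclic loess (-0.048) and without oleic acid replicate 3 or elaidic acid replicate 4 (-0.055 and -0.056). The dimmer PSMB6 probe had 0.35 and 0.31 in these comparisons, and 0.14 and 0.097 within series A.

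PSMB7 read 11.38, 11.38, 11.77 and 12.08 in control, 11.41, 12.13, 12.17 and 10.33 in oleic acid, 12.90, 12.18, 12.02 and 12.02 in elaidic acid, and 13.47, 12.41, 13.44 and 13.51 in stearic acid. Stearic acid replicate 2 stood about 1 unit below the other stearic acid samples, within the reach of elaidic acid replicate 1. The differences of elaidic acid were 0.63 (SE 0.39, limma adjusted p = 0.453) from control and 0.77 (SE 0.39, adjusted p = 0.290) from oleic acid. PSMB10, the immunoproteasome counterpart of PSMB7, was at the level of background, between -3.59 and 43.7 intensity units with 2 samples at or below 0, and was not tested. PSMB8 and PSMB9 were not analysed here.

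Among the beta subunits without an active site, PSMB3 gave the clearest separation of stearic from elaidic acid. It read 8.66, 9.48, 8.65 and 9.01 in control, 9.58, 8.83, 9.12 and 9.08 in oleic acid, 9.68, 9.21, 9.53 and 9.14 in elaidic acid, and 10.77, 10.54, 10.53 and 10.98 in stearic acid. The stearic acid samples lay above every other sample, elaidic acid replicates 1 and 3 of the same series included, and the elaidic acid samples of both series lay close together. Elaidic acid was lower than stearic acid by a log2 difference of -1.31 (SE 0.24, 95% interval -1.83 to -0.80, limma adjusted p = 0.0455), and within series B by -1.10 (SE 0.28, adjusted p = 0.363). Leaving out any 1 of 11 samples ended this call, with adjusted p up to 0.180 (without stearic acid replicate 1), at differences between -1.41 and -1.22 over all 16 omissions. Stearic acid against control was 1.75 (SE 0.24, adjusted p = 0.000971), or 1.33 with the block (SE 0.40, adjusted p = 0.416).

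PSMB2, another structural beta subunit, was the member of smallest p among the beta probes in elaidic acid against control. Its brighter probe read 11.56, 11.77, 11.60 and 11.24 in control, 11.94, 11.68, 11.57 and 11.84 in oleic acid, 11.91, 11.96, 11.90 and 12.13 in elaidic acid, and 12.55, 12.51, 12.64 and 12.57 in stearic acid. The 4 elaidic acid samples were above the 4 controls by narrow margins, in both series alike. The difference from control was 0.43 (SE 0.18, limma adjusted p = 0.309), 0.50 within series A (SE 0.21, adjusted p = 0.687), and 0.40 on the dimmer probe (0.24 within series A). Oleic acid differed from control by 0.21 (SE 0.18, adjusted p = 1).

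**Figure D3:**
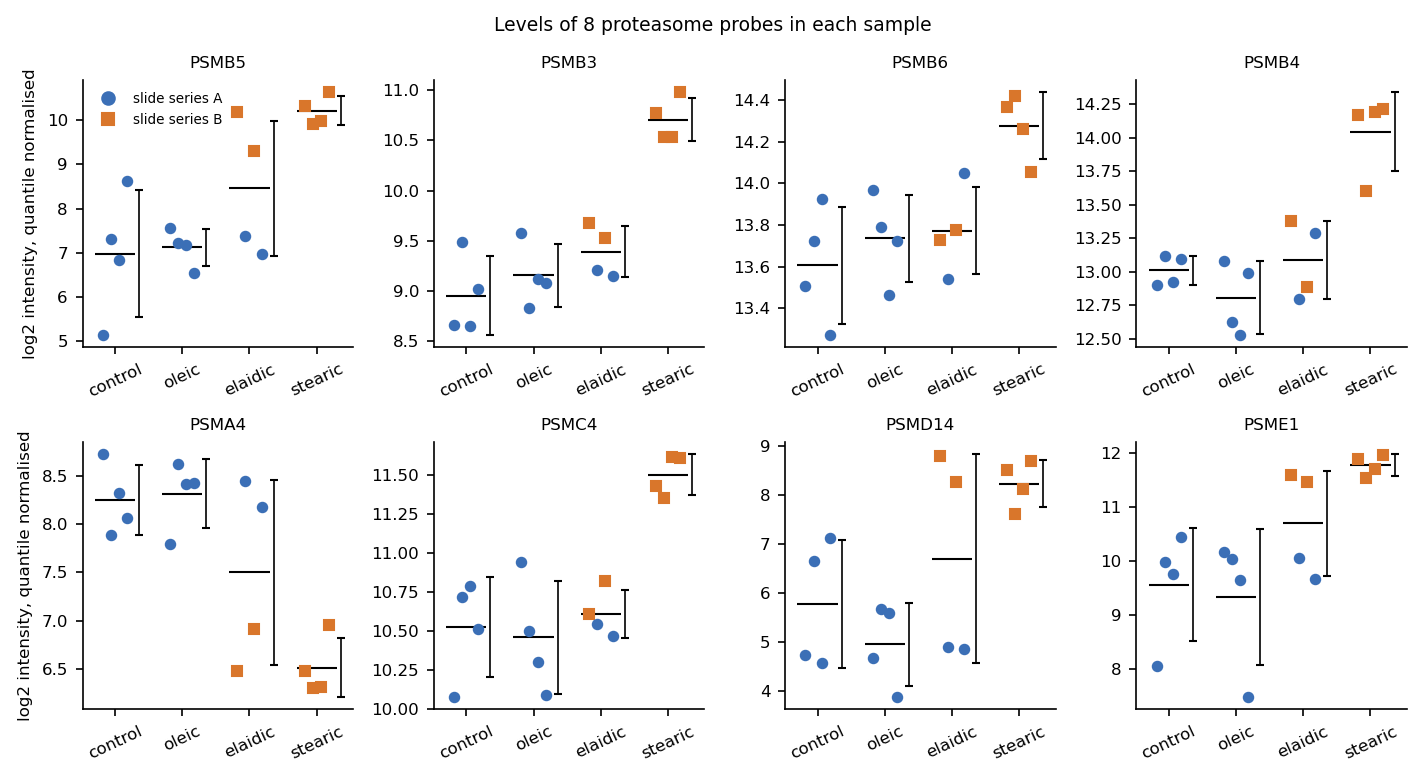
Log2 intensity, quantile normalised, of 8 proteasome probes in each sample; circles are slide series A, squares series B, lines group means and bars SD (n = 4). PSMB3, PSMC4 and PSMB4 separate stearic acid from all other samples, as does PSMB6 by a narrow margin (14.056 against 14.048). PSMB5, PSMD14 and PSME1 separate series B from series A. PSMA4 does so in the opposite direction, from 6.30 to 6.95 in series B against 7.80 to 8.73 in series A.

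The alpha subunits shape the gate of the core. PSMA2, on the probe of smallest p, read 8.13, 8.70, 8.02 and 8.55 in control, 8.37, 8.19, 7.90 and 8.22 in oleic acid, 9.26, 8.64, 9.10 and 9.04 in elaidic acid, and between 9.66 and 10.39 in stearic acid. Every elaidic acid sample lay above every oleic acid sample, while 1 elaidic acid sample fell within the control range. Elaidic acid against oleic acid was 0.84 (SE 0.23, 95% interval 0.34 to 1.33, limma adjusted p = 0.136), 0.67 within series A (SE 0.27, adjusted p = 0.778), and 1.49 on the brighter probe (0.81 within series A). Stearic acid against control was 1.70 (SE 0.23, adjusted p = 0.000953) and 1.36 with the block (SE 0.39, adjusted p = 0.400). In elaidic acid against stearic acid this was also the alpha probe of smallest p, at -1.04 (SE 0.23, adjusted p = 0.0590).

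PSMA5 read 6.65, 8.53, 8.06 and 8.83 in control, 8.38, 8.23, 8.25 and 5.75 in oleic acid, 9.86, 8.26, 9.72 and 8.39 in elaidic acid, and 10.79, 10.19, 10.51 and 10.80 in stearic acid. The low values were in control replicate 1 and oleic acid replicate 4, the 2 dimmest arrays. Stearic acid against control was 2.56 (SE 0.59, limma adjusted p = 0.00758), or 1.09 with the block (SE 0.94, adjusted p = 0.934).

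PSMA4 is an alpha subunit whose difference had the opposite sign to most of the others. It read 8.73, 7.88, 8.33 and 8.06 in control, 7.80, 8.62, 8.42 and 8.42 in oleic acid, 6.47, 8.44, 6.91 and 8.18 in elaidic acid, and 6.47, 6.30, 6.31 and 6.95 in stearic acid. The values followed slide series: elaidic acid replicates 1 and 3 lay with stearic acid, and replicates 2 and 4 lay with control. Stearic acid was lower than control by -1.74 (SE 0.38, limma adjusted p = 0.00617), and by -0.12 with the block (SE 0.43, adjusted p = 1). PSMA4 had 1 probe in the table. PSMA1 had probes of both directions, 1.24 (adjusted p = 0.0189; 0.39 with the block) on the brighter and -0.85 (adjusted p = 0.0871; 0.26 with the block) on the dimmer one in stearic acid against control. Of the 8 genes with a pair of tested probes, the pair had the same sign in 6 for this comparison, in 7 for elaidic acid against control and in 4 for elaidic acid against oleic acid.

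Among the ATPases, which unfold the substrate, PSMC4 read 10.07, 10.72, 10.79 and 10.51 in control, 10.94, 10.50, 10.30 and 10.09 in oleic acid, 10.61, 10.54, 10.82 and 10.46 in elaidic acid, and 11.43, 11.36, 11.62 and 11.61 in stearic acid. Elaidic acid samples of both series lay within the spread of control and oleic acid, and stearic acid stood alone. The differences were 0.98 for stearic acid against control (SE 0.23, limma adjusted p = 0.00741; 0.77 with the block) and -0.89 for elaidic acid against stearic acid (SE 0.23, adjusted p = 0.0963; -0.79 within series B). PSMC1 was the ATPase of smallest p in the comparisons of elaidic acid with control (0.36, SE 0.21, adjusted p = 0.426) and with oleic acid (0.31, SE 0.21, adjusted p = 0.394). PSMC5 differed between oleic acid and control by 0.40 (SE 0.49, adjusted p = 1).

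PSMC2, another ATPase, was singled out after its values were seen, because the stearic acid samples split. They read 10.52, 7.30, 7.60 and 10.52, against 8.69 to 10.22 in control, 8.40 to 9.84 in oleic acid and 9.45 to 10.29 in elaidic acid. Replicates 2 and 3 of stearic acid were thus the lowest of the 16 samples and replicates 1 and 4 the highest. The second PSMC2 probe, left out for 1 value below 0, showed no such split: it read 104.4, 80.9, 141.8 and 168.7 intensity units in the same samples.

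Of the non-ATPase subunits, PSMD14 is the enzyme that cuts ubiquitin chains off the substrate and PSMD4 is a ubiquitin receptor. PSMD14 read 4.73, 6.65, 4.58 and 7.12 in control, 4.67, 5.67, 5.60 and 3.88 in oleic acid, 8.80, 4.90, 8.27 and 4.85 in elaidic acid, and 8.50, 7.60, 8.12 and 8.69 in stearic acid. Elaidic acid replicates 1 and 3 lay within or just above the stearic acid range and replicates 2 and 4 in the control range. Stearic acid against control was 2.46 (SE 0.85, limma adjusted p = 0.0412) and -1.20 with the block (SE 0.95, adjusted p = 0.912). Elaidic acid against control was 0.93 (SE 0.85, adjusted p = 0.584) and -0.90 within series A, and elaidic against oleic acid was 1.75 (SE 0.85, adjusted p = 0.272) and -0.080 within series A. The call between stearic acid and control was lost without control replicate 1 or 3 or any 1 of the stearic acid samples, at adjusted p from 0.0501 to 0.124.

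PSMD4 read 5.59, 6.18, 5.54 and 5.70 in control, 6.30, 5.21, 4.96 and 4.44 in oleic acid, 6.24, 5.95, 5.65 and 5.23 in elaidic acid, and 5.84, 5.59, 5.98 and 5.85 in stearic acid. The groups overlapped in every comparison. Elaidic acid differed from control by 0.014 (SE 0.34, limma adjusted p = 0.985), a value whose sign turned with median scaling (-0.072), without control replicate 1, 3 or 4 or elaidic acid replicate 1 or 2 (down to -0.15) and within series A (-0.17), and from oleic acid by 0.54 (SE 0.34, adjusted p = 0.361). Oleic acid against control was -0.53 (SE 0.34, adjusted p = 1).

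PSMD10, also called gankyrin, is an assembly chaperone of the regulatory particle that is known as an oncoprotein of liver tumours. It read 2.60, 3.92, 3.71 and 5.13 in control, 3.91, 3.97, 2.90 and 3.11 in oleic acid, 6.82, 4.48, 6.41 and 4.54 in elaidic acid, and 6.90, 6.14, 7.04 and 7.00 in stearic acid. All elaidic acid samples, those of series A included, were above all oleic acid samples. The probe was dim, with a median of 19.2 intensity units over all samples. It read 5.25 to 17.5 units in oleic acid and as low as 3.89 in control. Elaidic acid against oleic acid was 2.09 (SE 0.57, 95% interval 0.89 to 3.30, limma adjusted p = 0.130), and 1.04 within series A (SE 0.53, adjusted p = 0.887). Against control it was 1.72 (SE 0.57, adjusted p = 0.209) and 0.67 within series A. Stearic acid against control was 2.93 (SE 0.57, adjusted p = 0.00319) and 0.83 with the block (SE 0.75, adjusted p = 0.944).

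PSMD3, a subunit of the lid of the regulatory particle, differed between stearic acid and control by 1.64 (SE 0.29, limma adjusted p = 0.00199; 0.81 with the block). PSMD2, a scaffold of the base, read 13.65, 13.18, 13.55 and 13.44 in stearic acid against 11.91 to 12.66 in elaidic acid, without overlap in series B or over all samples. Its difference was -1.17 (SE 0.26, adjusted p = 0.0578), and -0.89 within series B (SE 0.29, adjusted p = 0.532). PSMD9, an assembly chaperone, was dim and uneven, from -4.82 in oleic acid replicate 2 to 5.03 in oleic acid replicate 4, and its comparisons carried standard errors of 1.44. The PSMD8 probes differed in size in stearic acid against control, 0.42 on the bright and 2.01 on the dim probe (0.65 and 0.85 with the block).

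Among the activators, PSME1 and PSME2 form the interferon-inducible activator and PSME3 a nuclear one. PSME1 on its brighter probe read 8.05, 9.99, 9.76 and 10.45 in control, 10.18, 10.04, 9.66 and 7.47 in oleic acid, 11.59, 10.06, 11.48 and 9.67 in elaidic acid, and 11.90, 11.54, 11.71 and 11.98 in stearic acid. All of series B lay above all of series A. Stearic acid against control was 2.22 (SE 0.62, limma adjusted p = 0.0172), lost without control replicate 1 (1.72, adjusted p = 0.0620), and 0.56 with the block (SE 0.96, adjusted p = 1). The second PSME1 probe differed between oleic acid and control by 1.05 (SE 0.57, adjusted p = 1), of which oleic acid replicate 3 alone, at 9.74 against 6.61 to 6.78 in the other oleic acid samples, made the larger share: without it the value was 0.29.

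PSME3 read 3.29, 5.13, 4.85 and 5.22 in control, 5.54, 4.82, 4.21 and 2.95 in oleic acid, 6.87, 5.82, 6.97 and 4.92 in elaidic acid, and 7.47, 6.95, 7.06 and 7.36 in stearic acid. Elaidic acid replicate 2, of series A, stood above all controls and oleic acid samples and replicate 4 did not. The differences were 2.59 for stearic acid against control (SE 0.56, limma adjusted p = 0.00564; 1.04 with the block), 1.52 for elaidic acid against control (SE 0.56, adjusted p = 0.252; 0.75 within series A) and 1.76 for elaidic against oleic acid (SE 0.56, adjusted p = 0.170; 0.99 within series A). The PSME2 probes took opposite signs in stearic acid against control, 1.47 (SE 0.83, adjusted p = 0.176; -0.27 with the block) and -1.19 (SE 0.55, adjusted p = 0.103; -0.028 with the block). PSME4, a further activator, was dim and differed between stearic acid and control by 0.04 (SE 0.53; -1.40 with the block).

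PSMF1, the inhibitor, read 5.08, 6.21, 4.93 and 5.91 in control, 6.48, 6.03, 5.35 and 6.37 in oleic acid, 6.91, 5.23, 7.02 and 6.42 in elaidic acid, and 7.79, 6.80, 7.72 and 7.33 in stearic acid. Stearic acid was above control in every sample, by 1.88 (SE 0.42, limma adjusted p = 0.00623; 0.73 with the block), and elaidic acid overlapped with control (0.86, SE 0.42, adjusted p = 0.357; 0.29 within series A). PSMG3, a chaperone of core assembly and a dim probe, read 4.19, 4.23, 4.90 and 3.72 in control, 1.73, 4.45, 2.80 and -0.26 in oleic acid, 4.89, 3.38, 4.44 and 3.96 in elaidic acid, and 3.90, 4.58, 4.91 and 4.52 in stearic acid. The oleic acid values ran from the lowest of all samples to a value within the control range. Oleic acid against control was -2.08 (SE 0.70, adjusted p = 1) and against stearic acid -2.30 (SE 0.70, adjusted p = 0.0205), a call lost without oleic acid replicate 4 (-1.48, adjusted p = 0.0588), without stearic acid replicate 3 (-2.15, adjusted p = 0.0516) and with the slide series block (-1.31, SE 1.20, adjusted p = 0.976). It was lost too with an offset of 50 (adjusted p = 0.0612) and with array weights (-0.92, adjusted p = 0.134).

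**Figure D4:**
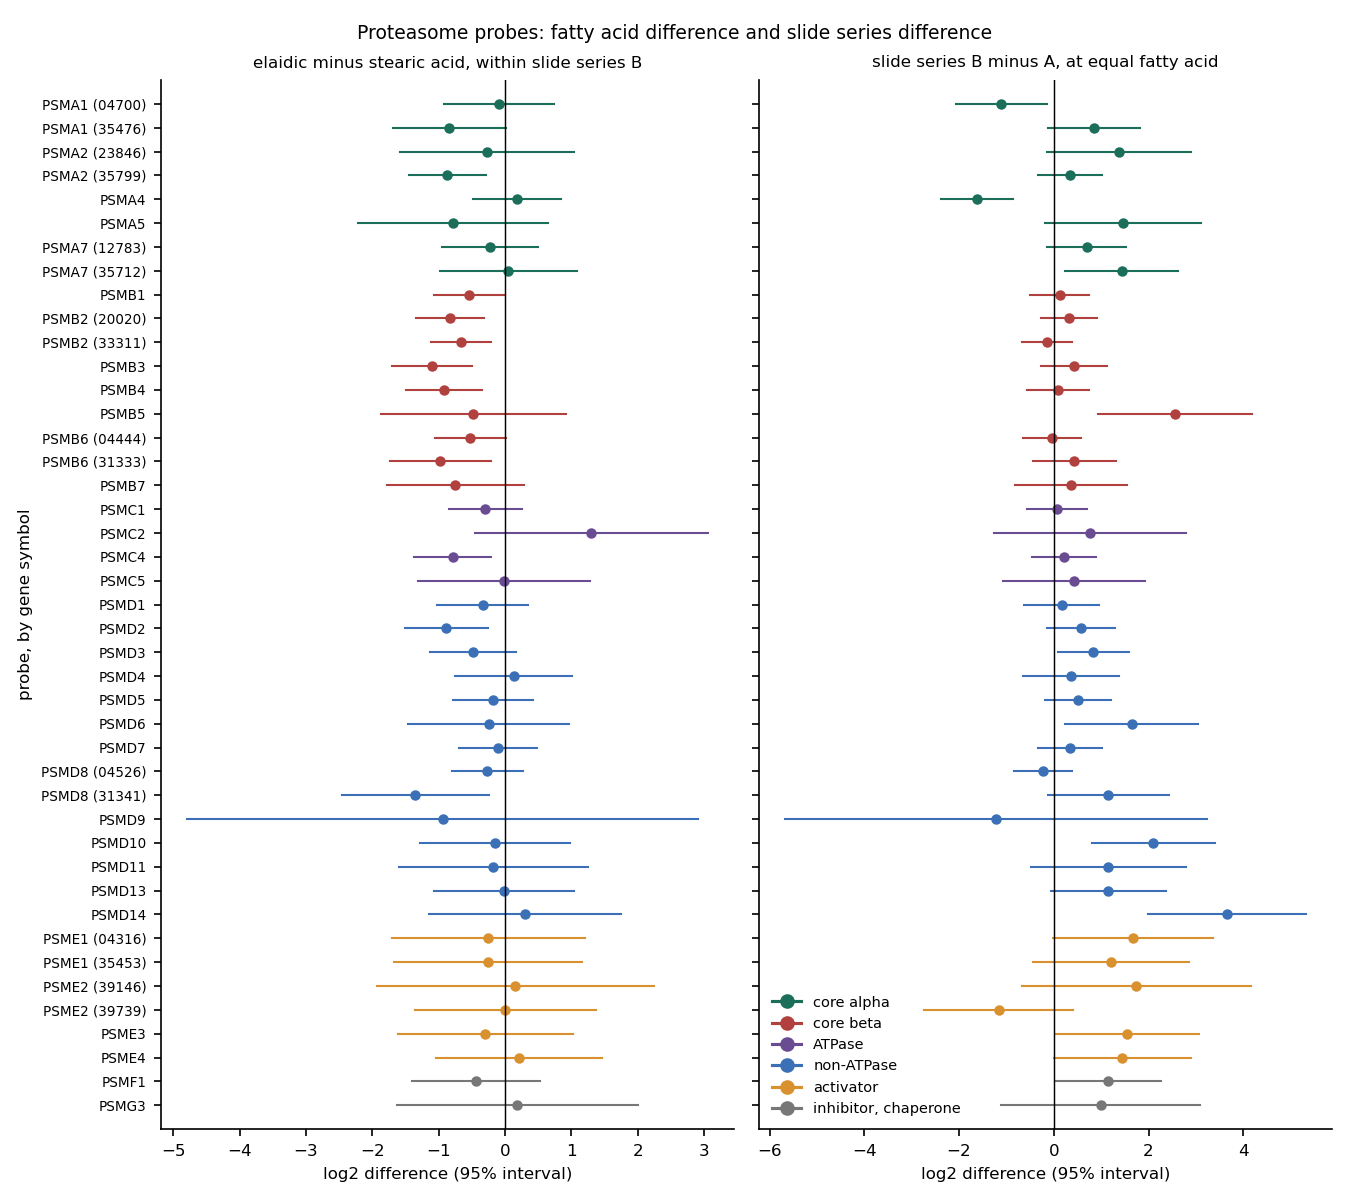
Log2 difference of each of the 43 tested proteasome probes between elaidic and stearic acid within slide series B (left) and between series B and A at equal fatty acid (right), both from the limma fit with slide series as a block; points are coloured by role and bars are 95% confidence intervals. On the left the 9 core beta probes all lie below 0 and the median of all members is -0.27; on the right 36 of 43 lie above 0, with PSMD14 the highest at 3.66 and PSMA4 the lowest at -1.62.

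The remaining 5 member probes had a value at or below 0 in some sample and were not tested. They were PSMB10, PSMA8, a testis alpha subunit at -6.01 to 13.5 intensity units, the ATPase PSMC3 at -3.56 to 16.1, the lid subunit PSMD12 at -0.287 to 34.9, and the second PSMC2 probe at -1.88 to 168.7; the first 4 of these are the only probe of their symbol. The tested members ran from such dim probes up to PSMB1, which reached 42233 intensity units.

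The partners of the proteasome were described beside it. Of 37 listed symbols for ubiquitin genes, activating enzymes, assembly factors, shuttles, the segregase VCP and transcriptional regulators, 28 symbols with 33 probes were tested. In stearic acid against control 16 of the 33 probes were called higher, against 15.0% of all probes, and 0 lower, against 14.8%, by limma, with a median of 0.99 against -0.18 for all probes; with the slide series block 0 were called and the median was 0.17. STAT3, a signal-activated transcription factor, differed by 1.31 (SE 0.20, adjusted p = 0.000983; 1.33 with the block, adjusted p = 0.325) on one probe and by 0.47 (adjusted p = 0.0925; 0.44 with the block) on the other. SHFM1, a small subunit of the lid, differed by 1.89 (SE 0.32, adjusted p = 0.00170), and by 1.11 with the block (adjusted p = 0.651); its second probe gave 1.82 (adjusted p = 0.00749; 0.24 with the block). UFD1L, a cofactor of VCP, differed by 2.14 (SE 0.38, adjusted p = 0.00223), and by 0.77 with the block (adjusted p = 0.856). RAD23B, a ubiquitin shuttle, differed by 2.14 (SE 0.42, adjusted p = 0.00366), and by 0.89 with the block (adjusted p = 0.883); its second probe gave 0.57 (adjusted p = 0.0479; 0.69 with the block). In elaidic acid against control 0 partners were called, against 0.323% of all probes, and 27 of 33 were higher. The median was 0.38, and 0.07 within series A. The smallest limma p was that of STAT3 (0.70, adjusted p = 0.151, and 0.71 within series A). Next came SHFM1 (1.02, adjusted p = 0.192, and 0.63 within series A). RAD23B (1.34, adjusted p = 0.198, and 0.71 within series A) followed. VCP came after it (1.70, adjusted p = 0.226, and 0.63 within series A). Second probes gave 0.18 for STAT3 (0.17 within series A) and 1.00 for SHFM1 (0.21 within series A). They gave 0.37 for RAD23B (0.43 within series A) and 0.44 for VCP (-0.11 within series A). In oleic acid against control the median was 0.03, with 17 of 33 higher and 0 called, where 0 of 22939 probes were. NFE2L1 differed between elaidic and oleic acid by 1.08 (SE 0.30, limma adjusted p = 0.134, and 0.54 within series A). From control elaidic acid differed by 0.80 (adjusted p = 0.252, and 0.26 within series A). For NFE2L2 these differences were 0.61 (adjusted p = 0.298) and 0.50 (adjusted p = 0.462), or 0.27 and 0.16 within series A. Oleic against stearic acid gave -1.41 for NFE2L1 (limma adjusted p = 0.0041, and -0.34 with the block), where 18.4% of all probes were called lower. NFE2L2 is not given here for that comparison.

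Of 12 symbols of antigen processing and the interferon response, with which the immunoproteasome is expressed, 4 probes were tested. In stearic acid against control limma called B2M, the light chain of class I molecules (2.49, SE 0.49, adjusted p = 0.00342; 1.07 with the block), and IFNGR2, a receptor chain for interferon gamma (2.52, SE 0.64, adjusted p = 0.0114; 0.73 with the block), higher, and NLRC5, an activator of class I genes, lower (-0.84, SE 0.30, adjusted p = 0.0464; -0.02 with the block). IRF1 did not pass (0.68, SE 0.28, adjusted p = 0.0741; 0.30 with the block). Of all probes, 15.0% were called higher and 14.8% lower in stearic acid against control. None of the 4 was called in elaidic acid against control, where 0.323% of all probes were.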

How the data were processed

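The authors deposited background-subtracted linear intensity, 1 value per probe and sample; per the labels, 2 technical replicate arrays were made per sample, and how the authors combined them or subtracted background is not given in the sources used here. Gene symbols came from the platform annotation (17397 probes with 1 symbol, 13571 with none). Values were transformed to log2, 8029 probes (25.9%) not positive in every sample were dropped, and 22939 were quantile normalised. All 6 contrasts were fitted on all 16 samples with limma 3.58.1 (lmFit, eBayes, two-sided) in R 4.3.3, with Benjamini-Hochberg adjustment over all probes tested and calls at an adjusted p under 0.05; intervals are 95%. The design was tested on simulated data, for elaidic acid against stearic acid only. A shift between slide series was simulated only in the runs fitted with the slide series block. The number of arrays limits the precision. Plots used matplotlib 3.10.9 and promoter counts pandas 2.3.3 (Python 3.11.15).

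The named probes were the called members with the largest differences (at most 6 in each direction), the probe of smallest p in each class, and in the elaidic acid comparisons with control and oleic acid always PSMB5, PSMB6, PSMB7, PSMB8, PSMB9, PSMB10, PSMD4 and PSMD14; of these PSMB10 could not be tested, and PSMB8 and PSMB9 were not analysed here. In stearic acid and elaidic acid against control the smallest-p partners were named too, up to 4 in a comparison. NFE2L1 and NFE2L2 were added as the factors that bind the first promoter motif. PSMA1, PSMC2, PSMD9, PSME2, PSME4, the PSMD8 probes and the plotted PSMB4 were added after their values were seen. The members and lists were chosen with earlier results of these data known. Alternatives covered normalisation, an offset of 50, dim probes, 1 probe per symbol, array weights, robust variances, an intensity trend, a slide series block, a replicate block, subsets of samples and leaving out each sample; leaving out the 2 dimmest arrays (control replicate 1 and oleic acid replicate 4) was chosen after seeing the data. Same-numbered replicates mostly did not deviate together, so replicate number was not used to pair the samples. The check did not remove slide series, and whether same-numbered replicates shared a culture was not tested.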

Additional observations from a re-analysis of the deposited data

Results flagged for a closer look

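In groups of 4 samples, 92 sets of values were examined for a sample far from the others, and 5 were found; chance alone gives about 1 in 20. Oleic acid replicate 4 had a median proteasome level of 7.91, where the nearest oleic acid sample had 8.61, and its PSMA5 level was 5.75 against 8.23 for the nearest. Its median intensity over all probes, 20.7, was among the 2 lowest of the series. PSME1 on its second probe read 9.74 in oleic acid replicate 3 and 6.78 in the nearest sample. Stearic acid replicate 2 had a PSMB7 level of 12.41 against 13.44 for the nearest stearic acid sample, and a PSMD10 level of 6.14 against 6.90. The causes were not tested.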

How the results depend on the processing

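Slide series is the setting that moved most results. With it as a block, member calls in stearic acid against control and in oleic against stearic acid went from 31 to 0. In both, 0 of 22939 probes were called with the block, and the member medians went to 0.63 and -0.64. Elaidic acid against stearic acid went from 1 member call to 0, against 0.00436% of all probes. Its member median went to -0.27, as in series B alone (0 calls, -0.27). PSMD14 changed sign with the block in 4 comparisons (elaidic acid against control -0.90, stearic acid against control -1.20, elaidic against oleic acid -0.080, oleic against stearic acid 0.38; -0.90 and -0.080 in series A alone). PSMD4 in elaidic acid against control changed sign with the block and in series A alone (-0.17), with median scaling (-0.072) and without the 2 dimmest arrays (-0.039), and PSMB6 in elaidic against oleic acid with cyclic loess (-0.048).

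Without normalisation, medians were 1.92 for stearic acid against control, -1.20 for elaidic against stearic acid, -2.02 for oleic against stearic acid and 1.35 for series B against A, with 0 calls for the series term and 0 for elaidic against stearic acid. The calls of elaidic against stearic acid were 5 with median scaling, 3 with cyclic loess, 9 with an offset of 50, 7 in the brighter 50% of probes, 7 with an intensity trend, 10 with array weights, 0 in the 2 groups alone and 6 without the 2 dimmest arrays. Array weights gave 15 calls in elaidic acid against control and 21 against oleic acid. The offset gave a median of -0.91 for oleic against stearic acid and 4 calls for the series term, and the elaidic acid samples alone gave 9. Calls among all probes moved with the setting too and are not given beside these counts. The counts alone therefore do not say whether proteasome probes moved apart from other probes.

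Leaving out 1 sample at a time gave 20 to 32 calls for stearic acid against control. For oleic against stearic acid there were 24 to 33. For elaidic against stearic acid there were 0 to 3, and for the series term 0 to 4. These counts are of members only, without the calls among all probes beside them. PSMD4 in elaidic acid against control ran from -0.15 to 0.19, and PSMB6 in elaidic against oleic acid from -0.056 to 0.11. With replicate number as a replicate block, elaidic against stearic acid had 0 calls; 7 of 24 same-numbered pairs correlated over 0.1 (range -0.46 to 0.36), and 1 of 16 samples correlated best with its own number. The cause was not tested for any of these. Of 56 named values, 24 were called in the main fit. Under all alternatives together, 1527 outcomes kept direction and side of the threshold, 52 lost the call, 32 gained one and 18 changed sign. Leaving out 1 sample at a time made up 867 of the 1527. With the slide series block 22 outcomes lost the call, 5 changed sign and no member stayed called. The 2 elaidic acid samples in each series limit every within-series value, and dim probes such as PSMD9 and PSMG3 lie near background.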
